A study of Mus musculus with 4 samples.

Results

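The genes described here are 10 members of the bone morphogenetic protein (BMP) pathway, chosen by name: the ligand genes Bmp2, Bmp4 and Bmp7, the receptor genes Bmpr1a and Bmpr2, the signal-transducing Smad1 and Smad5, and the Id genes Id1, Id2 and Id3. They are 10 of 31729 genes with a value in the files, and 9 of them were among the 11969 genes tested. The list was drawn up with earlier results of these data known. In the TGF-β reporter positive cells, Bmp4, Smad1 and Id3 were lower, while Id1, the most abundant of the 10, had higher values in both experiments without passing the main test. The summed level of the Id genes was therefore not lower in reporter positive cells, but its makeup differed, with a larger share of Id1 and smaller shares of Id3 and Id2.

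BMP ligands are secreted dimers of the TGF-β superfamily that bind type I receptors such as Bmpr1a together with type II receptors such as Bmpr2. The active receptors phosphorylate Smad1 and Smad5, which enter the nucleus with Smad4, whereas TGF-β itself acts mainly through Smad2 and Smad3 and competes for the same Smad4. Id genes are classical direct targets of BMP Smads, and their proteins hold E proteins away from DNA, which favours proliferation over differentiation in many cell types. In epithelial cells TGF-β is known to lower Id gene transcription, and in skin BMP signals hold hair follicle stem cells quiescent.

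The study measured messenger RNA in the stem cells of squamous cell carcinomas that arose in mouse skin. Lineage-negative cells were sorted by integrin alpha6 and CD44 and then divided by a fluorescent mCherry reporter of TGF-β signalling, and each fraction was sequenced in experiments 1 and 2, so that each group holds 2 libraries. All 4 libraries share the strain label C57BL/6 X FBV and the genotype label TetO-Hras + LV-rtTA3-TGF-beta reporter, in which Hras stands under a tetracycline-controlled promoter and rtTA3 is the transactivator that drives it. The sources used here do not give age, sex, any added drug or the promoter behind rtTA3. They also do not say that the libraries came from different mice, so the p-values reflect library-to-library spread that may be technical.

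Depth was similar, at 3.13 and 3.75 gigabases of aligned sequence in the negative libraries of experiments 1 and 2 and 3.55 and 3.29 in the positive ones. The labelled epithelial identity matched its markers: Trp63, Cdh1, Epcam, Itga6, Itgb4, Col17a1 and Perp, the 7 keratinocyte markers measured of 10 listed, summed to 2894 and 2966 FPKM (fragments normalised by transcript length and sequencing depth) in the negative and 3394 and 3408 FPKM in the positive libraries. The higher positive sum was that of Perp, and the other 6 summed to 1351 and 1565 against 674 and 706 FPKM. Leukocyte markers summed to 28.4 and 46.7 FPKM in the negative and 11.3 and 26.4 FPKM in the positive libraries, mostly from Cd74, with the defining Ptprc between 0.150 and 0.362 FPKM. Melanocyte markers summed to 1.38 and 3.90 against 0.505 and 1.11 FPKM, with Pmel listed at 0. Endothelial markers summed to 11.4 and 18.8 against 11.6 and 10.1 FPKM, with Eng listed at 0. This sum overlapped through Tie1, which lay above in the positive libraries at 5.11 and 3.84 against 7.99 and 6.31 FPKM. The other endothelial markers above 0 all lay below without overlap, as 42.6% of all genes tested did. Fibroblast markers summed to 57.6 and 114 FPKM in the negative and 19.4 and 38.6 FPKM in the positive libraries. Markers of differentiated keratinocytes (9 measured of 10) summed to 1663 and 1363 FPKM in the negative against 7834 and 7583 FPKM in the positive libraries. Sprr1a, at 2331 and 2209 FPKM, and Sprr1b, at 4235 and 3626 FPKM, made up most of the positive sums. Of the 8 tested, 6 were higher by limma at an adjusted p under 0.05, against 2.55% of all genes tested. The summed differentiation, fibroblast, leukocyte and melanocyte marker levels thus moved with the reporter without overlap, but single markers did not all do so. The leukocyte sum did so through Cd74. Of the 10 leukocyte markers, Cd74 alone lay below in the positive libraries, and the others overlapped. Of the 2 leukocyte markers tested, Cd74 was at 25.6 and 42.0 against 8.39 and 17.5 FPKM. It passed only with the experiment number as a block (limma adjusted p = 0.128, and 0.0182 with the block). Lyz2 overlapped, at 2.25 and 3.93 against 2.38 and 6.58 FPKM. Of the 7 fibroblast markers tested, 4 lay below in the positive libraries, against 42.6% of all genes, and 3 overlapped. The part of these marker levels in the results that follow was not tested.

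Sequence upstream of the start was available in RefSeq for 7 of the 10 members. It is shown for the 3 members that passed the test and for Id2, so that both Id genes with lower values can be read side by side. Each line gives the 250 bases before the start, from RefSeq on GRCm38.p6, 5′ to 3′ on the gene's own strand: Bmp4 at chr14:46390670-46390919 (minus strand), Smad1 at chr8:79399429-79399678 (minus strand), Id2 at chr12:25096093-25096342 (minus strand) and Id3 at chr4:136143572-136143821 (plus strand). Capitals mark GTCT or its reverse complement AGAC, the short core that Smad proteins contact, and GGCGCC, a palindromic GC-rich element bound by BMP Smads. The letters of these motifs cannot overlap one another.
Bmp4: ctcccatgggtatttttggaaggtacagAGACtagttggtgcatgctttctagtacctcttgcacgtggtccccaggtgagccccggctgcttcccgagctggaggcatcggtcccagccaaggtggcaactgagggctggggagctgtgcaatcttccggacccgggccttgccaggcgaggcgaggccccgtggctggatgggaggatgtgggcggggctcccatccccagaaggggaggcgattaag
Smad1: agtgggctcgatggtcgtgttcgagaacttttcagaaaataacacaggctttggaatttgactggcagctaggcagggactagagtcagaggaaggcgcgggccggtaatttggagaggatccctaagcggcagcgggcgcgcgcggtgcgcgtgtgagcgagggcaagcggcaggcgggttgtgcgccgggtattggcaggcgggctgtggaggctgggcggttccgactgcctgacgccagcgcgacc
Id2: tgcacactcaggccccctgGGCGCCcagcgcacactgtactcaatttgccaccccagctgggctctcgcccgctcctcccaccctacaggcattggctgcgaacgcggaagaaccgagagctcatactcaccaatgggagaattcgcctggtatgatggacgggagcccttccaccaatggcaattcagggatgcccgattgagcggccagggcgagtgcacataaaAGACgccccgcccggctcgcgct
Id3: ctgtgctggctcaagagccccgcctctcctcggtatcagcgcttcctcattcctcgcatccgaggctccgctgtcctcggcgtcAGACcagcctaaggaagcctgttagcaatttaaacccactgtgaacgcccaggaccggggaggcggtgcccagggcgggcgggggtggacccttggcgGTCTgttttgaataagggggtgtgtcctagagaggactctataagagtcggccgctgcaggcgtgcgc
The Id3 window holds GTCT or AGAC at 2 places, starting 166 and 68 bases before the start, and no GGCGCC. The Id2 window holds 1 AGAC, 23 bases before the start, and 1 GGCGCC, 231 bases before it. The Bmp4 window holds 1 AGAC, 222 bases before the start, and the Smad1 window holds neither motif. GTCT in either orientation occurs in 82.9% of 32851 RefSeq windows of 250 bases and GGCGCC in 9.59%, so a match to the first is the usual case. Over the 9 windows of the 7 members, 6 hold GTCT or AGAC and 4 hold GGCGCC. Some of these are overlapping windows of Smad5 that share a GTCT. The counts are therefore not of genes and are not to be set against those percentages. A match describes letters only.

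Of the 9 members tested, 3 were lower in reporter positive cells and none was higher by limma on log2(FPKM + 1) at an adjusted p under 0.05, and 6 had an unadjusted p under 0.05. Over all genes tested, 5.07% passed by the same rule, 2.52% lower and 2.55% higher, and 25.6% had an unadjusted p under 0.05. Bmp4, 1 of the 3 lower members, reached the filter of 1 FPKM only in its negative libraries. With the experiment number as a block, 5 members were lower and 1 higher, against 6.36% and 4.09% of all genes, or 10.4% in either direction. None of the 3 passed when 1 library was left out, whichever it was, nor without a filter on low values, with reference transcripts only or with 1 transcript per gene. In the last 3 fits the estimates of Smad1 and Id3 were the same as in the main fit, and their adjusted p lay between 0.0738 and 0.138. All differences are reporter positive minus negative, and the median difference of the 9 members was -0.92 against -0.18 for all genes tested. In 7 of the 9, both positive libraries lay below both negative ones, in 1 above, and in 1 the groups overlapped. That ordering was itself common: 42.6% of all genes lay below and 15.3% above in the same way. Within experiments, 8 members were lower in both and 1 higher in both, against 54.2% and 20.7% of all genes. As the members were chosen with earlier results of these data known, these comparisons with all genes are descriptive only.

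**Figure D1:**
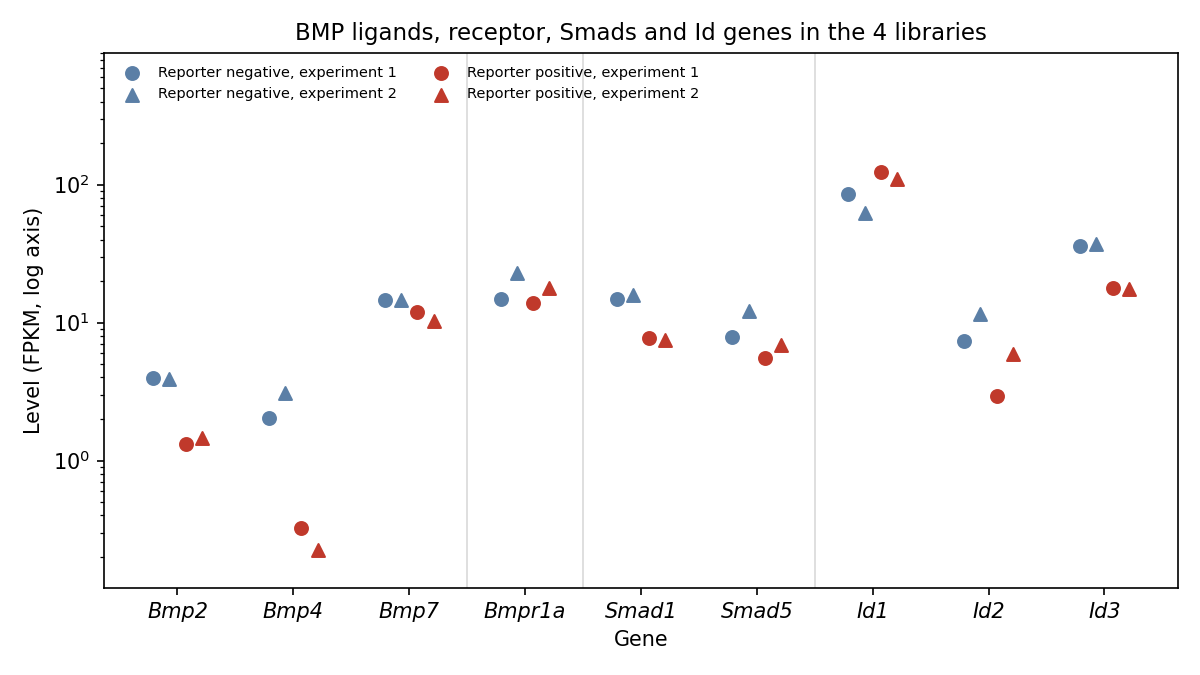
Level of each tested member in each library, in FPKM on a log axis, with circles for experiment 1, triangles for experiment 2, blue for reporter negative and red for reporter positive; Bmpr2 is not drawn. Id1 is the highest and Bmp4 the lowest gene in every library, and the positive libraries lie above the negative ones for Id1, below for 7 genes and among them for Bmpr1a.

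Among the ligand genes, Bmp4 fell, Bmp2 lay close to the threshold, and Bmp7, the most abundant, differed least. Bmp4, a ligand of the BMP2/4 class, was at 2.02 and 3.08 FPKM in the negative libraries of experiments 1 and 2 and at 0.327 and 0.224 FPKM in the positive ones. The positive libraries held 16.2% and 7.28% of the negative level of their own experiment, with no overlap. Bmp4 entered the test only through its negative libraries, as both positive values were below the filter of 1 FPKM. Its call thus rests on a gene admitted by the group where it was high. In these bulk samples, fewer cells of a type that makes Bmp4 and less Bmp4 RNA per cell cannot be told apart. The difference in log2(FPKM + 1) was -1.46 ± 0.24 (SE, n = 2 per group; limma adjusted p = 0.0442), and the pseudocount makes it understate the change of a gene at this level. Bmp4 passed in none of the fits that left out 1 library, where its adjusted p lay between 0.0695 and 0.231. With a pseudocount of 0.1 its difference was -2.80 and did not pass (adjusted p = 0.0515).

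Bmp2, the other ligand of that class, was at 3.99 and 3.89 FPKM in the negative and 1.32 and 1.46 FPKM in the positive libraries. Both positive libraries lay far below both negative ones, at 33.1% and 37.6% of their own experiment's negative level. The difference in log2(FPKM + 1) was -1.05 ± 0.19 (SE, n = 2 per group), with a limma adjusted p of 0.0512, and 0.0434 with the experiment as a block. Part of this level rests on assembled transcripts that differ between libraries. The annotated 3-exon Bmp2 transcript alone was at 1.69 and 2.85 FPKM in the negative and 1.32 and 0.565 FPKM in the positive libraries.

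Bmp7, a ligand of the BMP5/6/7 class that pairs with Bmp2 or Bmp4 in potent heterodimers, was at 14.5 FPKM in both negative libraries and at 11.9 and 10.2 FPKM in the positive ones. The groups did not overlap, but the difference of -0.37 ± 0.16 in log2(FPKM + 1) did not pass (limma adjusted p = 0.242). Because Bmp2 and Bmp4 differed more, Bmp7 made up 70.7% and 67.6% of the summed FPKM of the ligand genes in the negative libraries and 87.8% and 85.8% in the positive ones. The sum itself was 20.5 and 21.5 FPKM in the negative and 13.5 and 11.9 FPKM in the positive libraries. Bmp7 exceeded Bmp4 4.71- to 7.19-fold in negative and 36.4- to 45.7-fold in positive libraries.

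The receptor genes did not pass. Bmpr1a, the main type I BMP receptor of skin epithelium, was at 14.8 and 22.7 FPKM in the negative and 14.0 and 17.7 FPKM in the positive libraries. The groups overlapped, and the libraries of experiment 2 were the higher in both. The difference in log2(FPKM + 1) was -0.21 ± 0.26 (SE, n = 2 per group; limma adjusted p = 0.654), with a 95% interval from -0.88 to 0.46, and it turned to 0.083 without the reporter negative library of experiment 2.

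Bmpr2, the type II receptor gene, was listed at 0 in all 4 libraries under its annotated transcript of 3507 bases. Its reads lay instead on assembled transcripts of 13 exons and 11463 to 12647 bases, whose overlap with the annotated exons was too small for the rule used to place transcripts. Counted at a minimum overlap of 10%, an alternative chosen after seeing the data, Bmpr2 was at 4.95 and 10.4 FPKM in the negative and 4.67 and 5.45 FPKM in the positive libraries. The high value, in the negative library of experiment 2, came mostly from a 4-exon form at 6.98 FPKM, and its 13-exon form was at 3.38 FPKM. The groups overlapped and the difference in log2(FPKM + 1) was -0.44 ± 0.35 (SE, n = 2 per group; limma adjusted p = 0.475).

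Smad1, a transcription factor phosphorylated by type I BMP receptors, fell by about the same proportion in both experiments. It was at 14.9 and 15.7 FPKM in the negative and 7.77 and 7.50 FPKM in the positive libraries, all on 1 annotated transcript. The groups were widely separated against the small spread within each, the positive libraries holding 52.3% and 47.6% of the negative level. The difference in log2(FPKM + 1) was -0.92 ± 0.16 (SE, n = 2 per group; limma adjusted p = 0.0484). Smad1 passed in none of the 4 fits that left out 1 library (adjusted p 0.0865 to 0.312), nor with a pseudocount of 0.1 (adjusted p = 0.0502), nor after median-of-ratios scaling (adjusted p = 0.0608) or quantile normalization (adjusted p = 0.0612). Those scalings move the median of all genes from -0.18 to 0.01 and -0.03, and relative to the median of all genes as deposited the Smad1 difference was -0.74.

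Smad5, which carries the same signal as Smad1, was at 7.89 and 12.1 FPKM in the negative and 5.51 and 6.91 FPKM in the positive libraries. Both positive libraries lay below both negative ones, yet the negative libraries spread widely, and the difference of -0.59 ± 0.26 in log2(FPKM + 1) did not pass (limma adjusted p = 0.237). Together the BMP Smads were at 22.7 and 27.9 FPKM in the negative and 13.3 and 14.4 FPKM in the positive libraries. Smad1 made up 65.3% and 56.5% of that sum in the negative and 58.5% and 52.0% in the positive libraries, which overlap.

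**Figure D2:**
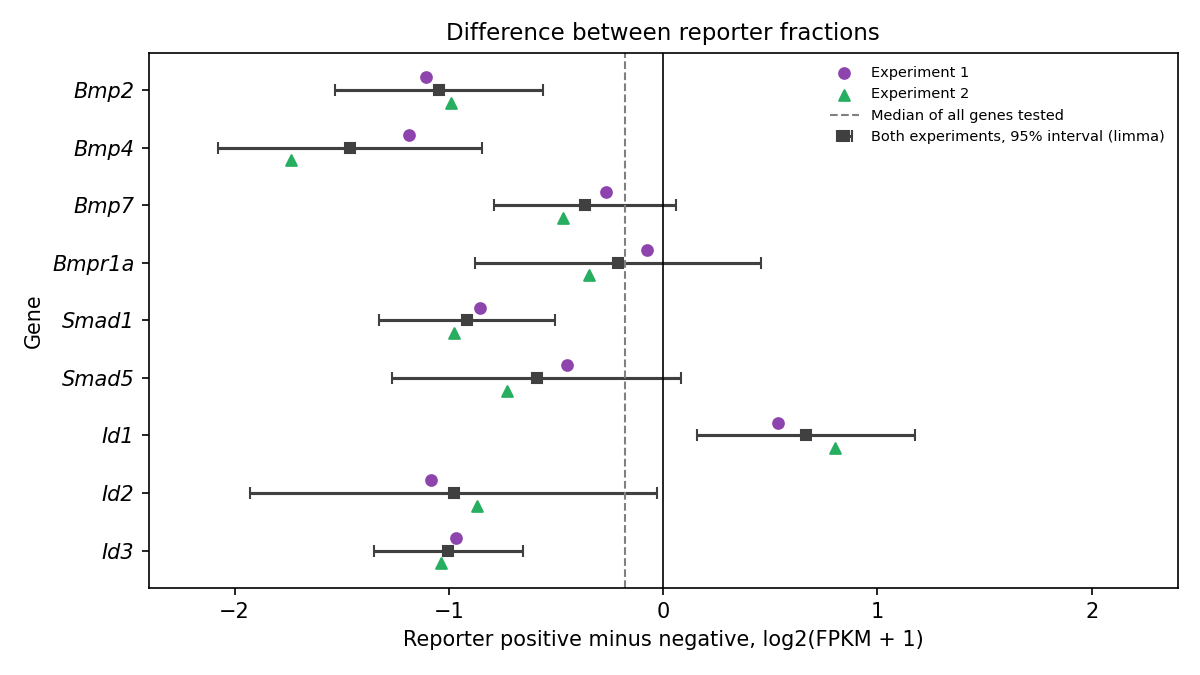
Reporter positive minus negative difference in log2(FPKM + 1) for each tested member: squares are the limma estimate over both experiments with its 95% interval, circles and triangles the difference within experiments 1 and 2, and the dashed line the median of all genes tested at -0.18. Bmp4 lies lowest at -1.46, Id1 alone lies above 0 at 0.67, and each gene's difference has 1 sign in both experiments.

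Of the Id genes Id3 fell, and Id1 and Id2 did not pass the main test. Id3, an inhibitor of E proteins (mm9 chromosome 4, 135699412 to 135701670, plus strand), was at 36.1 and 37.2 FPKM in the negative and 18.0 and 17.6 FPKM in the positive libraries, all on 1 annotated transcript. The positive libraries held 49.8% and 47.3% of the negative level, and the files' own intervals ran from 33.6 to 39.5 FPKM over the negative and from 16.0 to 19.5 FPKM over the positive libraries. Id3 fell by 1.0 ± 0.13 in log2(FPKM + 1) (SE, n = 2 per group; limma adjusted p = 0.0320), the smallest adjusted p among the members. It kept its call with a pseudocount of 0.1 and under both other scalings, and its adjusted p lay between 0.0781 and 0.226 in the 4 fits that left out 1 library.

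Id1, the Id gene most used as a readout of BMP Smad activity (mm9 chromosome 2, 152561987 to 152563146, plus strand), was at 85.2 and 62.5 FPKM in the negative and 124 and 110 FPKM in the positive libraries. Both positive libraries lay above both negative ones, at 145% and 175% of their own experiment's negative level. The difference in log2(FPKM + 1) was 0.67 ± 0.20 (SE, n = 2 per group), with a 95% interval from 0.16 to 1.18. It did not pass over all genes (limma adjusted p = 0.125) and passed with the experiment as a block (limma adjusted p = 0.0443).

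Id2, the third Id gene here (mm9 chromosome 12, 25778666 to 25780957, minus strand), was at 7.31 and 11.6 FPKM in the negative and 2.92 and 5.90 FPKM in the positive libraries. Experiment 2 was the higher in both fractions, so the libraries differed more within a fraction than those of Id3, though the groups did not overlap. The difference in log2(FPKM + 1) was -0.98 ± 0.37 (SE, n = 2 per group), with a limma adjusted p of 0.187, and 0.0436 with the experiment as a block. Id2 and Id3 thus had differences of like size and unlike precision.

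Id4, the remaining Id gene and not a member, was tested and its groups overlapped. With it included, the Id genes summed to 129 and 113 FPKM in the negative and 145 and 135 FPKM in the positive libraries. Id1 made up 65.9% and 55.4% of that sum in the negative and 85.4% and 81.3% in the positive libraries, while Id3 made up 27.9% and 32.9% against 12.4% and 13.1%. The ratio of Id1 to Id3 was 2.36 and 1.68 in the negative and 6.90 and 6.23 in the positive libraries. A ratio within a library does not depend on how libraries are scaled, and this one was higher in the positive library of each experiment.

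**Figure D3:**
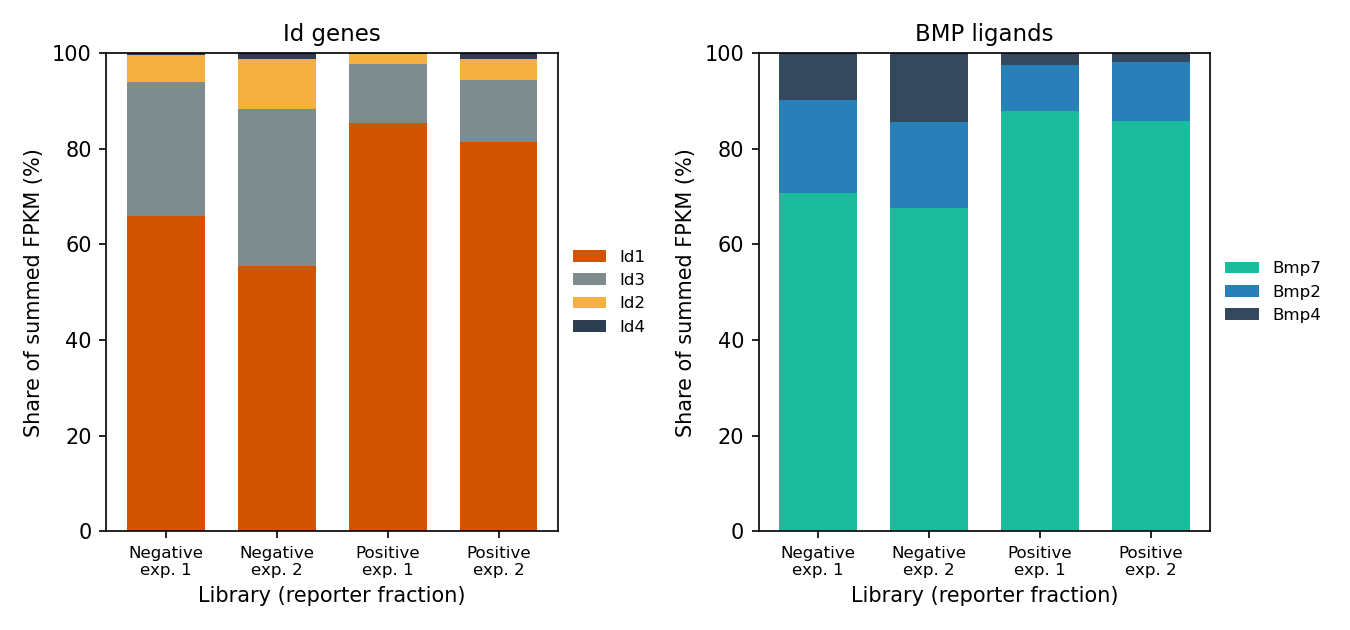
Share of the summed FPKM of the Id genes (left) and of the 3 BMP ligand genes (right) held by each gene, in percent, with 1 bar per library. Id1 takes 55.4% to 65.9% in the negative and 81.3% to 85.4% in the positive libraries, and Bmp7 takes 67.6% to 70.7% and 85.8% to 87.8%.

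Per unit of transcript length, Id1 was the most abundant member in every library, and Bmp4 was the least abundant of the 9 tested. In the negative libraries Smad1 (14.9 and 15.7 FPKM) and Bmpr1a (14.8 and 22.7) overlapped, and Bmp7 (14.5 in both) lay just below them. Levels were not tested between genes. In the positive libraries Bmpr1a, at 14.0 and 17.7 FPKM, overlapped Id3, at 18.0 and 17.6 FPKM. Among the less abundant members, Id2 and Smad5 overlapped in both fractions.

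A list of 54 other BMP pathway genes was read off the same fit. Of these, 28 were tested, and 2 were lower and none higher by limma at an adjusted p under 0.05 (9 at an unadjusted p under 0.05), against 2.52% and 2.55% of all genes. With the experiment as a block 4 were lower, against 6.36% of all genes. The median difference of the 28 was -0.39, and in 18 of them both positive libraries lay below both negative ones, against 42.6% of all genes. The other 26 were below 1 FPKM in at least 3 libraries, and 11 of them were listed at 0 throughout, among them the ligand genes Bmp5, Bmp6 and Bmp8b.

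The largest difference on the list belonged to Sostdc1, a secreted antagonist that binds BMP ligands and also dampens Wnt signalling. It fell from 74.9 and 100 FPKM in the negative to 8.91 and 20.3 FPKM in the positive libraries, by 2.59 ± 0.40 in log2(FPKM + 1) (SE, n = 2 per group; limma adjusted p = 0.0402). Both negative values stand above the upper bound of the files' own interval, 71.7 and 95.1 FPKM, and even these bounds exceed the positive values several fold. Its call was lost without the positive library of experiment 1 or without either negative library (adjusted p 0.0460 to 0.157 over the 4 fits), and with a pseudocount of 0.1 (0.0512) or median-of-ratios scaling (0.0509). Nbl1, an antagonist of the DAN family, was at 10.7 and 15.1 FPKM in the negative and 4.85 and 6.91 FPKM in the positive libraries (difference -1.01 ± 0.26; limma adjusted p = 0.0986, and 0.0337 with the block). Fstl3, a binder of activins and some BMPs, was at 5.82 and 6.78 against 3.68 and 3.47 FPKM and did not pass (limma adjusted p = 0.114). Of 17 antagonist genes 6 were tested and 1 passed, where 5.07% of all genes did.

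Among target genes, Gata3, a transcription factor of skin and hair follicle lineages that BMP induces in some tissues, fell from 9.54 and 16.4 FPKM in the negative to 2.74 and 3.17 FPKM in the positive libraries. The summed positive values were close together and well below both negative ones. The difference in log2(FPKM + 1) was -1.78 ± 0.29 (SE, n = 2 per group, limma adjusted p = 0.0451). In the positive library of experiment 1, 1.92 FPKM lay on an assembled transcript and 0.824 FPKM on an annotated one. With reference transcripts only the difference was -2.30 and did not pass (limma adjusted p = 0.155). Gata3 passed in none of the 4 fits that left out 1 library (adjusted p 0.0528 to 0.218). The homeobox genes Msx2 (1.54 and 2.20 FPKM against 1.03 and 0.597) and Msx1 (1.12 and 1.42 against 0.717 and 0.704) did not overlap between groups and did not pass (limma adjusted p 0.180 and 0.278). Msx1 reached the filter of 1 FPKM only in its negative libraries. Of 9 target genes listed, 7 were tested and 1 passed, where 5.07% of all genes did.

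The E protein genes, whose products Id proteins bind, all had both positive libraries below both negative ones, as 42.6% of all genes did. Tcf3, which encodes E2A, was at 29.5 and 35.1 FPKM in the negative and 18.6 and 16.0 FPKM in the positive libraries (difference -0.86 ± 0.17; limma adjusted p = 0.0611, and 0.0491 with the block). Its direction depended on how transcripts were summed, turning to 1.06 when only its most abundant transcript was used. Tcf12 was at 16.4 and 25.9 against 13.3 and 16.2 FPKM, and Tcf4 at 2.53 and 4.66 against 1.98 and 2.33 FPKM, and neither passed (limma adjusted p 0.329 and 0.337). The Tcf4 difference turned to 0.019 with reference transcripts only and to 0.22 with its most abundant transcript.

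No other receptor, Smad or ligand gene on the list passed by limma; 3 of the 6 receptor genes, none of the 5 Smad and Smad turnover genes and not the 1 ligand gene tested had an unadjusted p under 0.05, where 25.6% of all genes did. Of the co-receptors that bind BMP ligands, Rgmb was at 6.71 and 8.49 FPKM in the negative and 4.01 and 3.78 FPKM in the positive libraries (limma adjusted p = 0.0926), and Rgma at 4.31 and 7.90 against 2.41 and 3.12 FPKM (adjusted p = 0.170). The type I receptor gene Bmpr1b was at 1.43 and 1.64 against 0.572 and 0.757 FPKM (adjusted p = 0.150). These 3 lay below in the positive libraries without overlap, as 42.6% of all genes did, and none passed. Bmpr1b reached the filter of 1 FPKM only in its negative libraries.

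Smad4, the shared partner of BMP and TGF-β Smads, was at 12.8 and 18.2 FPKM in the negative and 10.9 and 12.4 FPKM in the positive libraries, and the inhibitory Smad6 was at 1.38 and 1.55 against 0.602 and 1.15 FPKM. Neither passed (limma adjusted p 0.361 and 0.339). Smurf1, a ubiquitin ligase that targets Smad1 and Smad5 for degradation, was the only 1 of the 28 tested genes with both positive libraries above both negative ones, at 13.4 and 16.1 against 8.37 and 12.3 FPKM (difference 0.49 ± 0.24; limma adjusted p = 0.274). Its relative Smurf2 was listed at 0 in the negative library of experiment 1, which may be a failed estimate. Bmp3, which opposes BMP signalling, was at 2.74 and 2.13 against 2.08 and 1.37 FPKM and did not pass (limma adjusted p = 0.422).

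**Figure D4:**
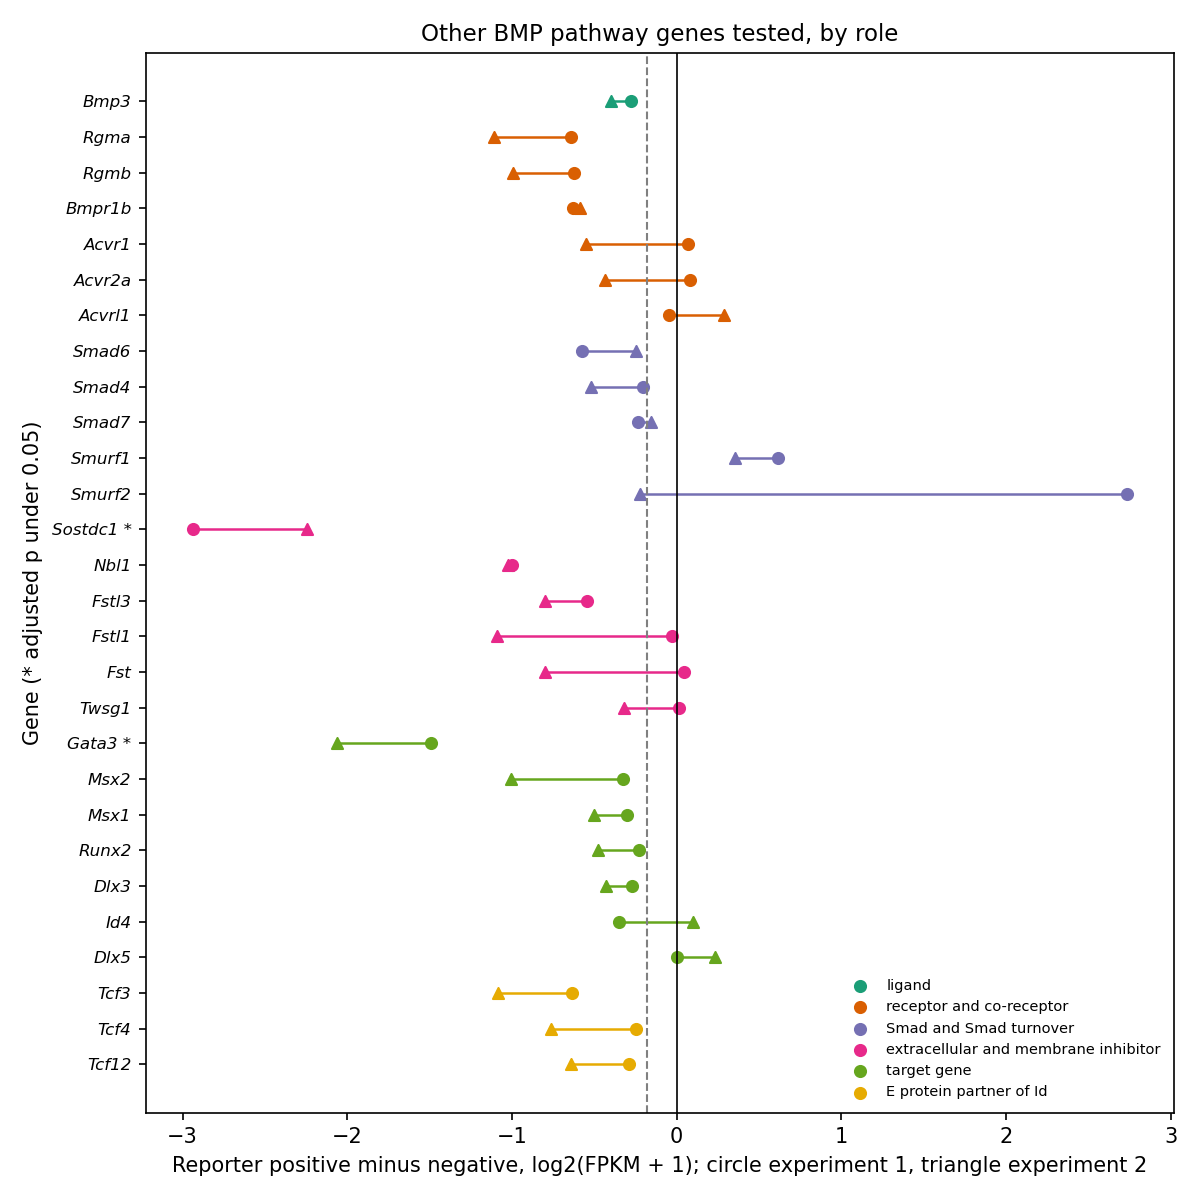
Reporter positive minus negative difference in log2(FPKM + 1) for the 28 other BMP pathway genes tested, coloured by role, with a circle for experiment 1 and a triangle for experiment 2; the dashed line is the median of all genes tested and stars mark an adjusted p under 0.05. In 19 genes both experiments lie below 0 and in 2, Smurf1 and Dlx5, both lie above it.

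Values of the differentiation markers stand beside these results. The transglutaminase gene Tgm1 was at 10.5 and 8.44 FPKM in the negative and 68.2 and 75.0 FPKM in the positive libraries. Involucrin, Ivl, was at 14.4 and 8.67 against 61.7 and 75.1 FPKM. Of the 8 differentiation markers tested, 6 lay above without overlap, against 15.3% of all genes, and 2 overlapped. These 2 were Krt10, lower in both experiments at 629 and 848 against 504 and 838 FPKM, and Lor. Lor was at 4.68 and 1.58 against 2.33 and 4.08 FPKM. Of the keratinocyte markers, the hemidesmosome collagen Col17a1 was at 723 and 775 FPKM in the negative and 259 and 250 in the positive libraries. It passed (limma adjusted p = 0.0169). Over the 7 measured, Col17a1 alone passed. With the experiment as a block 4 passed as lower and 1 as higher, against 6.36% and 4.09% of all genes. In direction, 5 were lower in both experiments and 2 higher. Perp, at 1543 and 1401 against 2720 and 2702 FPKM, was among those higher (limma adjusted p = 0.0788, and 0.0225 with the block), and so was Cdh1, at 61.7 and 84.3 against 78.5 and 92.5 FPKM, whose groups overlapped. Itga6, whose product was used in the sort, was at 331 and 410 against 181 and 205 FPKM and passed only with the block (limma adjusted p = 0.0565, and 0.0190 with the block). The fibroblast marker Thy1 fell from 15.2 and 32.5 FPKM to 0.521 and 1.80 FPKM (limma adjusted p = 0.0324). Vim, a mesenchymal filament gene, was at 14.8 and 39.4 against 5.92 and 8.38 FPKM. It passed only with the block (limma adjusted p = 0.122, and 0.0332 with the block). Of the 7 fibroblast markers tested, 4 lay below without overlap, against 42.6% of all genes, and 3 overlapped. Among these 3, Dcn was at 3.36 and 2.61 against 1.79 and 3.61 FPKM. Thy1 alone passed the main test. The part of all these markers in the lower Bmp4, Smad1, Id3, Sostdc1 and Gata3 was not tested.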

How the data were processed

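Messenger RNA was measured in 4 libraries, 2 reporter negative and 2 reporter positive, grouped and paired by experiment number from their titles. The authors used TopHat, Cufflinks and build mm9, per the submitters' processing notes, with versions not given in the sources used here. Their deposited tables hold FPKM, its interval and coverage for annotated and assembled transcripts, per the file headers. Assembly differs between libraries, which can move reads between forms. Depth is the ratio of coverage to FPKM.

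Transcripts of at least 200 exonic bases were summed per gene with Python 3.11.15 and pandas 2.3.3. Names came from GENCODE M21 transcript identifiers, then the files' gene identifiers, and otherwise from at least 50% exonic overlap on the same strand. Shorter transcripts carried 95.1% to 98.9% of all FPKM and were left out. Genes reaching 1 FPKM in 2 or more libraries entered a limma 3.58.1 fit (R 4.3.3, intensity trend) on log2(FPKM + 1), two-sided, with Benjamini-Hochberg adjustment over 11969 genes. The test was tried on simulated data. With 2 against 2 libraries the smallest exact two-sided permutation p is 0.333, so none was run.

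Across genes, the experiment 2 minus 1 differences of the negative and positive fractions correlated (Pearson 0.174, Spearman 0.377, 11969 genes, which are not independent). The titles also number the experiments. Values with the experiment as a block are therefore given where they change the call of a member or named pathway gene. For markers they are given in part. All members are named, with pathway genes past the threshold and up to 3 per role by smallest p. Members, lists and tests were chosen with earlier results of these data known. Keratins Krt1, Krt5, Krt14 and Krt15 were not analysed here.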

Additional observations from a re-analysis of the deposited data

How the results depend on the processing

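Of the 10 members 3 passed in the main fit. The replicate block gave 6 members (adding Bmp2, Id1 and Id2), 4 other pathway genes (adding Nbl1 and Tcf3) and 1250 of all genes against 607, and changed the call of no other member or named pathway gene. A pseudocount of 0.1 left 1 member (Id3) and 1 pathway gene. No filter on low values, reference transcripts only and the most abundant transcript per gene left 0 members and 0 pathway genes by limma (5, 4 and 4 members at an unadjusted p under 0.05, and 10, 6 and 3 pathway genes), with 4, 95 and 54 genes in all. Requiring at least 5 FPKM in 2 libraries left 7 members tested, without Bmp2 and Bmp4, and 2 of them passed (Id3 and Smad1). Requiring values above 0 in every library gave 1209 genes, 4 members and 4 pathway genes. Median-of-ratios scaling left 1 pathway gene and split the calls into 419 higher and 195 lower, and quantile normalization into 407 and 252, against 305 and 302 as deposited. Leaving out 1 library, each in turn, gave 3 to 179 genes, 0 members (4 to 6 at an unadjusted p under 0.05) and 0 to 1 pathway genes; the lone library left in a group is assumed to vary like the other group, and the design then has fewer samples. Directions turned for Bmpr1a without the reporter negative library of experiment 2 (0.083, range -0.50 to 0.083 over the libraries left out), for Tcf3 with its most abundant transcript (1.06), and for Tcf4 with that (0.22) and with reference transcripts (0.019); the cause was not tested. All other named genes kept their direction under every alternative run.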
